A study of Capra hircus with 9 samples.

Results

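The genes described here are 10 neutrophil genes among the 21681 genes to which the transcripts of goat submandibular glands were summed. They were chosen by name, with earlier results of these data known. 5 of them, MPO, PRTN3, ELANE, AZU1 and CTSG, encode proteins of the azurophil granule. The other 5, S100A8, S100A9, S100A12, CSF3R and MMP9, are characteristic of maturing and mature neutrophils. Submandibular glands of healthy female Lubo goats were sequenced at 1 month (group A, kids), 12 months (group B, adolescents not yet bred) and 24 months (group C, adults), with 3 libraries per age, each from a separate animal. All goats were kept under the same conditions and fasted before slaughter, and no treatment separated the groups. Libraries were made from total RNA after removal of ribosomal RNA and kept the strand. The estimated reads assigned to transcripts, called reads here, summed to between 20061946 and 26328877 per library. They are not all the reads that were sequenced.

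Neutrophils are made in the bone marrow, where their granules are filled in sequence. The azurophil granule proteins are transcribed early, at the promyelocyte stage, and their messages are largely shut off before the cell leaves the marrow, whereas the S100 calgranulins, the G-CSF receptor and the gelatinase MMP9 are characteristic of later stages. In whole glands, fewer cells of a type and less RNA per cell cannot be told apart.

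The 1-month-old libraries were unlike each other in ways that touch every result. The 10 salivary acinar and duct markers summed to 1933 CPM in replicate 1, 249 in replicate 2 and 1324 in replicate 3, and to between 4045 and 5867 CPM in the 6 older libraries. CPM is the read count scaled to the size of the library after TMM normalization, a correction for composition. AQP5, the acinar water channel, was at 217, 0.495 and 129 CPM in the 1-month-old libraries, so the labelled tissue was nearly without this defining marker in replicate 2. Markers of thymocytes, developing T cells of the thymus, summed to 2569, 7872 and 1206 CPM in 1-month-old replicates 1, 2 and 3 and to at most 13.4 CPM in any older library. Replicate 2 thus stood apart by its low salivary and high thymic markers, and replicate 3 by the genes described here, so values are given with and without these libraries.

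The 10 genes together took 0.00197%, 0.00796% and 0.149% of the reads of 1-month-old replicates 1, 2 and 3. In the older libraries they took at most 0.000602%. A single animal therefore carried most of the signal at 1 month, and the order of the 1-month-old libraries was replicate 3, then 2, then 1 for each of the 10 genes. MPO had 10879 reads and S100A12 12053 in replicate 3, while no gene of the 10 exceeded 445 reads in either of the other 1-month-old libraries.

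**Figure D1:**
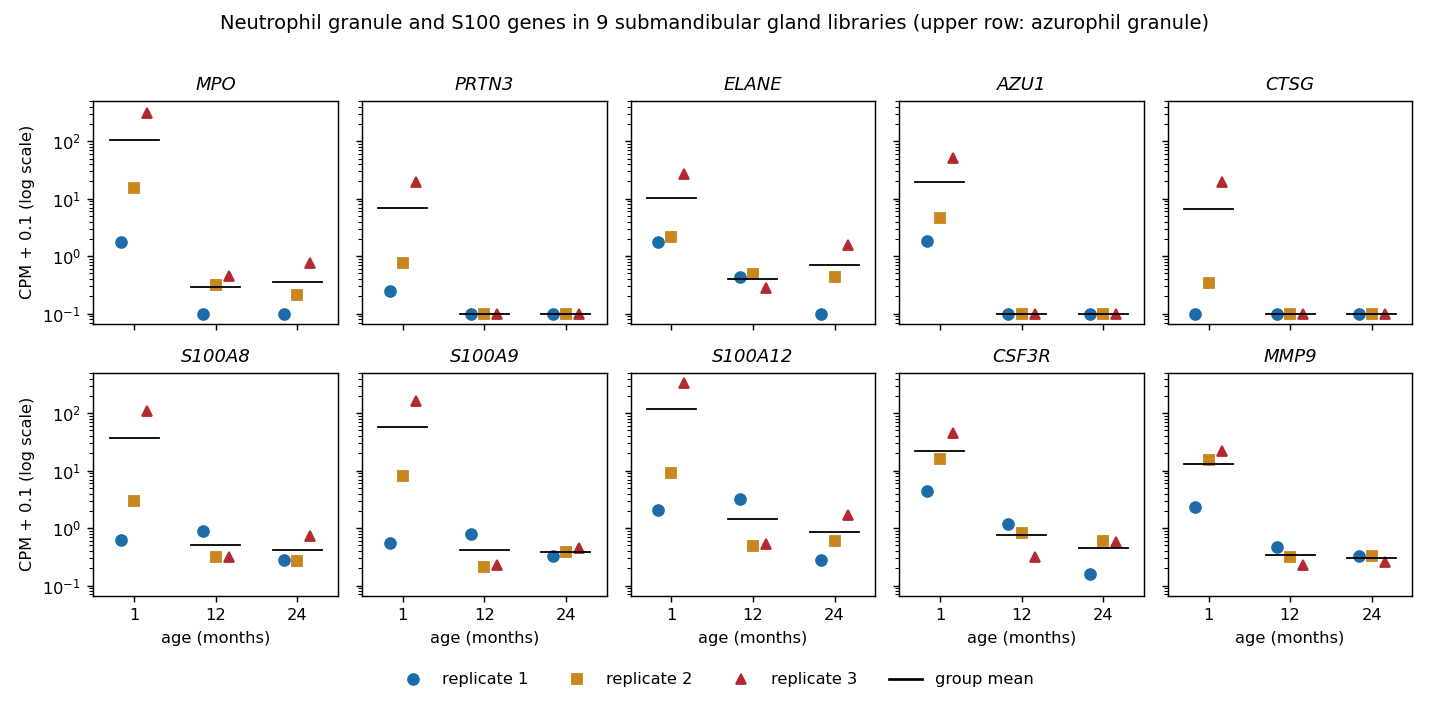
Level of each of the 10 genes in the 9 libraries, as CPM + 0.1 on a log scale against age in months. Each point is a library, its shape and colour give the replicate number, and the line is the mean of the 3 libraries. At 1 month replicate 3 is highest in every panel, and the 1-month-old mean of MPO, 107 CPM, lies between replicate 3 and the other libraries.

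MPO encodes myeloperoxidase, the haem enzyme that makes hypochlorous acid. It was at 1.63, 15.3 and 304 CPM in 1-month-old replicates 1, 2 and 3, at 0, 0.220 and 0.350 CPM in the 12-month-old libraries and at 0, 0.113 and 0.667 CPM in the 24-month-old libraries. All 3 young libraries lay above all 6 older ones. The mean of 107 ± 171 CPM (SD, n = 3) at 1 month was 564-fold that at 12 months and 412-fold that at 24 months. Without replicate 3 these ratios were 44.5 and 32.5, and without replicate 2 they were 806 and 588. MPO fell with age in edgeR's quasi-likelihood test with Benjamini-Hochberg adjustment, with a log2 difference of -9.04 ± 2.28 (SE) at 12 months (adjusted p = 0.0394) and -8.48 ± 2.12 at 24 months (adjusted p = 0.0313). Without replicate 3 neither change passed (adjusted p = 0.0608 and 0.0586). In replicates 2 and 3 all its reads were assigned to a transcript that the authors assembled anew.

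AZU1 encodes azurocidin, an antimicrobial protein with the fold of a serine protease but without its activity. It was at 1.70, 4.53 and 51.6 CPM in the 1-month-old libraries and had no read in any of the 6 older libraries. Against the limit of 3 counts per library that a count of 0 allows, it was at least 138-fold lower at 12 months and at least 116-fold lower at 24 months. Without replicate 3 these bounds were 22.3 and 18.8, and without replicate 2 they were 190 and 161. AZU1 fell in both comparisons (adjusted p = 0.0422 and 0.0240), and it also passed without replicate 3 (adjusted p = 0.0337 and 0.0185) and without replicate 2 (adjusted p = 0.0298 and 0.00781). Among the azurophil granule genes tested it was the only one to do so.

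ELANE encodes neutrophil elastase, the main elastin-cleaving protease of the granule. It was at 1.63, 2.09 and 26.9 CPM in the young libraries, at 0.330, 0.385 and 0.175 CPM at 12 months and at 0, 0.338 and 1.44 CPM at 24 months. The groups did not overlap, but 24-month-old replicate 3 came close to the lowest young library. The young mean of 10.2 ± 14.4 CPM (SD, n = 3) was 34.4-fold that at 12 months and 17.2-fold that at 24 months, and 6.27-fold and 3.14-fold without replicate 3 and 48.1-fold and 24.1-fold without replicate 2. ELANE fell at 12 months, with a log2 difference of -5.02 ± 1.29 (SE) (adjusted p = 0.0409), while the log2 difference of -3.94 ± 1.49 at 24 months did not pass (adjusted p = 0.105). Without replicate 3 the log2 differences were -2.63 and -1.57, and neither passed (adjusted p = 0.0597 and 0.470). Without replicate 2 the log2 differences were -5.58 and -4.46, and both passed (adjusted p = 0.0129 and 0.0314).

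PRTN3 and CTSG encode proteinase 3 and cathepsin G, the remaining serine proteases of the granule. PRTN3 had 4, 19 and 694 reads in 1-month-old replicates 1, 2 and 3, and CTSG had 0, 7 and 684. Neither had a read in any older library. PRTN3 was at least 48.2-fold lower at 12 months and at least 40.7-fold lower at 24 months, bounds that shrank to 2.93 and 2.47 without replicate 3 and were 69.9 and 59.0 without replicate 2. CTSG was at least 46.2-fold and 38.9-fold lower, and without replicate 3 its mean was under the limit of 3 counts, so that no fold can be given, whereas without replicate 2 the bounds were 68.4 and 57.7. Both were removed from the test by the filter on low counts. In the fit without that filter the log2 differences at 24 months were -10.29 for PRTN3 (adjusted p = 0.0481) and -10.23 for CTSG (adjusted p = 0.0839), and at 12 months neither passed (adjusted p = 0.0832 and 0.126). A further gene described as cathepsin G-like (LOC102175113) had 157 reads in 1-month-old replicate 3 and none elsewhere. AZU1, PRTN3 and ELANE lie next to each other, with 0 genes between them, in the RefSeq annotation of assembly ARS1.2.

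S100A8 and S100A9 encode the subunits of calprotectin, a calcium- and zinc-binding protein that fills the neutrophil cytosol. S100A8 was at 0.519, 2.86 and 109 CPM at 1 month, at 0.783, 0.220 and 0.219 CPM at 12 months and at 0.174, 0.169 and 0.616 CPM at 24 months. S100A9 was at 0.445, 8.06 and 166 CPM at 1 month, at 0.701, 0.110 and 0.131 CPM at 12 months and at 0.232, 0.282 and 0.359 CPM at 24 months. For both genes 12-month-old replicate 1 exceeded 1-month-old replicate 1, and S100A8 was also higher in 24-month-old replicate 3. S100A8 was 92.2-fold lower at 12 months and 117-fold lower at 24 months, and 4.15-fold and 5.29-fold lower without 1-month-old replicate 3. The corresponding ratios for S100A9 were 185 and 199, and 13.5 and 14.6 without that library. Without replicate 2 the ratios were 135 and 172 for S100A8 and 265 and 285 for S100A9.

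S100A12 encodes calgranulin C, a ligand of the receptor for advanced glycation end products, and was listed as LOC102169149. It was at 1.93, 8.91 and 337 CPM at 1 month, at 3.18, 0.385 and 0.437 CPM at 12 months and at 0.174, 0.508 and 1.59 CPM at 24 months. At 12 months replicate 1 lay above the lowest young library, whereas the 24-month-old libraries did not overlap with the young ones. The young mean of 116 ± 192 CPM (SD, n = 3) was 87.0-fold that at 12 months and 153-fold that at 24 months, 4.07-fold and 7.15-fold without replicate 3, and 127-fold and 224-fold without replicate 2. S100A8, S100A12 and S100A9 are adjacent in the same annotation, with 0 genes between them.

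None of the 3 S100 genes passed at 12 months, where the log2 differences were -6.40 ± 2.05 (SE) for S100A8, -7.39 ± 2.18 for S100A9 and -6.34 ± 2.11 for S100A12 (adjusted p = 0.0725, 0.0596 and 0.0796). All 3 fell at 24 months, with log2 differences of -6.70 ± 1.93, -7.48 ± 1.95 and -7.09 ± 1.97 (adjusted p = 0.0485, 0.0353 and 0.0433). Without 1-month-old replicate 3 the 24-month values were -2.31, -3.77 and -2.76 and no longer passed (adjusted p = 0.207, 0.0775 and 0.130). Without replicate 2 all 3 passed at both ages, with log2 differences at 12 months of -7.00 for S100A8, -7.94 for S100A9 and -6.93 for S100A12 (adjusted p = 0.0297, 0.0285 and 0.0330).

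CSF3R encodes the receptor for G-CSF, the cytokine that drives neutrophil production and release. It was at 4.37, 15.7 and 44.3 CPM at 1 month, at 1.07, 0.715 and 0.219 CPM at 12 months and at 0.0581, 0.508 and 0.462 CPM at 24 months. All young libraries lay above all older ones. CSF3R was 32.1-fold lower at 12 months and 62.7-fold lower at 24 months, 15.0-fold and 29.4-fold lower without replicate 3, and 36.4-fold and 71.0-fold lower without replicate 2. It fell at both ages, with log2 differences of -4.94 ± 1.01 (SE) and -5.82 ± 1.07 (adjusted p = 0.0226 and 0.0127) and also without replicate 3 (adjusted p = 0.0429 and 0.0204) and without replicate 2 (adjusted p = 0.0120 and 0.00411). The authors' estimate divided its reads between a pair of transcripts, and the one annotated as isoform X1 took 23.1, 123 and 965 reads in the young libraries and at most 0.01 in any older one.

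MMP9 encodes gelatinase B, the protease of the gelatinase granule. It was at 2.26, 15.0 and 21.5 CPM at 1 month, at 0.371, 0.220 and 0.131 CPM at 12 months and at 0.232, 0.226 and 0.154 CPM at 24 months. The groups did not overlap, and the older libraries had 3 to 9 reads each. The young mean of 12.9 ± 9.78 CPM (SD, n = 3) was 53.7-fold that at 12 months and 63.3-fold that at 24 months. Without replicate 3 the ratios were 35.9 and 42.4, and without replicate 2 they were 49.3 and 58.2. MMP9 fell at both ages, with log2 differences of -5.67 ± 0.98 (SE) and -5.86 ± 0.94 (adjusted p = 0.0150 and 0.00830), and also without replicate 3 (adjusted p = 0.0309 and 0.0139) and without replicate 2 (adjusted p = 0.00854 and 0.00378).

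Of the 10 genes, 5 were called lower at 12 months than at 1 month (MPO, ELANE, AZU1, CSF3R and MMP9), and across all 15243 genes tested 9.55% were called lower. A call required an adjusted p under 0.05 and a log2 change over 2. At 24 months 7 of the 10 were called lower (MPO, AZU1, S100A8, S100A9, S100A12, CSF3R and MMP9), beside 9.16% of 15003 genes. The 1-month-old libraries serve both comparisons, which are therefore not independent. By class, 3 azurophil granule genes and 2 mature neutrophil genes were called at 12 months, and 2 and 5 at 24 months. The median log2 difference over all genes tested was -0.05 at 12 months and -0.04 at 24 months. No overlap between the libraries, with the older group lower, was seen for 6 of the 10 genes at 12 months and for 8 at 24 months. Of all genes tested 27.2% and 23.7% had this pattern. PRTN3 is among the 6 and the 8, although the filter on low counts removed it from the genes tested.

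Without 1-month-old replicate 3 the same 3 genes, AZU1, CSF3R and MMP9, were called at both ages. Leaving out replicate 2 gave 8 calls at each age. Of all genes tested, 9.24% at 12 months and 9.81% at 24 months were called without replicate 3. Without replicate 2 the shares were 12.4% and 14.4%. The 12-month calls also rested on every 12-month-old library, since leaving out any of the 3 left 0 of the 10 genes called, with 7 to 9 at an unadjusted p under 0.05. Those omissions left between 0 and 111 genes called of all genes tested, against 1751 with all libraries. At 24 months, 2 genes remained without 24-month-old replicate 1 (CSF3R and MMP9), 1 without replicate 2 (MMP9) and 0 without replicate 3. The same omissions left 1266, 450 and 293 genes called of all genes tested, against 1959 with all libraries.

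**Figure D2:**
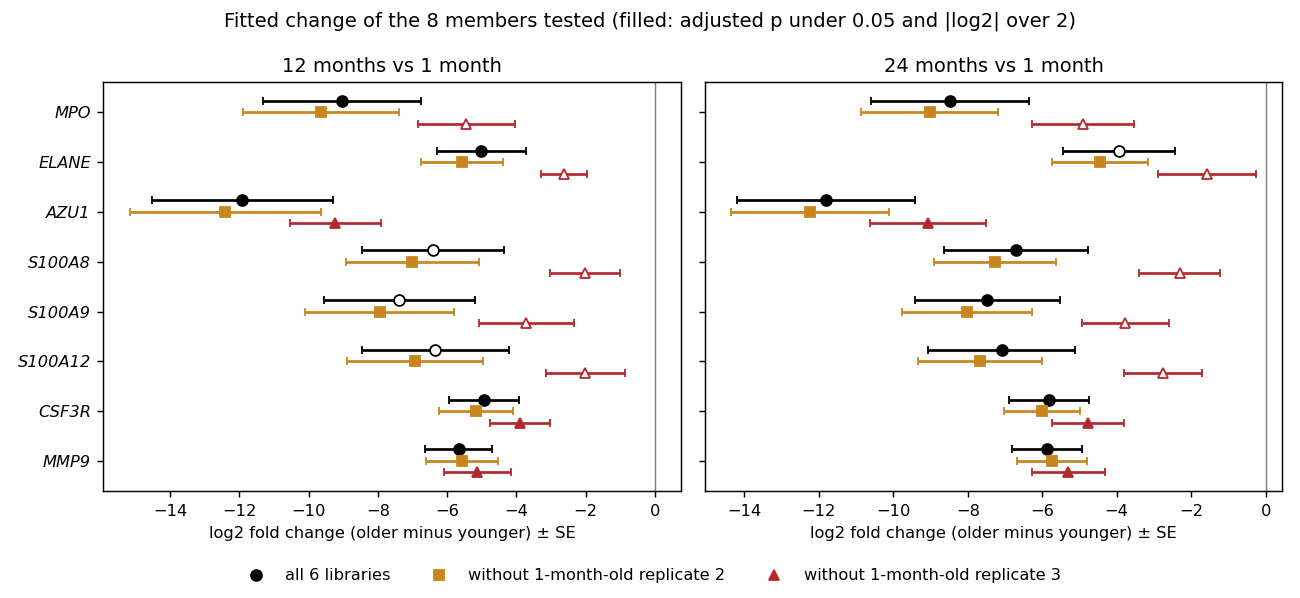
Fitted log2 fold change (older minus younger) with its standard error for the 8 genes that passed the filter on low counts, at 12 months (left) and 24 months (right), with all libraries, without 1-month-old replicate 2 and without 1-month-old replicate 3. Filled symbols passed the call. Without replicate 3 the S100 genes move most, S100A8 at 24 months from -6.70 to -2.31, while MMP9 moves from -5.86 to -5.30.

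Between 12 and 24 months none of the 10 genes had enough reads to pass the filter. In the fit without it, 7 were tested by edgeR and 0 called, with log2 differences from -0.90 for CSF3R to 1.03 for ELANE and adjusted p of 0.657 and 0.680, and 0 of the 7 had an unadjusted p under 0.05. Over all genes edgeR's quasi-likelihood test called 0.0% of 14297, with 10.9% at an unadjusted p under 0.05, while DESeq2 called 13 and edgeR's exact test 16. A difference between the older groups was not detectable at this depth.

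The genes divided into those held almost entirely by 1-month-old replicate 3 and those shared with replicate 2. Replicate 3 held 98.7% of the summed 1-month-old CPM of CTSG, 97.0% of S100A8, 96.9% of S100A12, 95.9% of PRTN3, 95.1% of S100A9 and 94.7% of MPO. For AZU1 and ELANE the shares were 89.2% and 87.8%. The shares were lowest for CSF3R, 68.8%, and MMP9, 55.4%, of which replicate 2 held 24.4% and 38.8%. Among the 14177 genes with a mean of at least 1 CPM, 0.508% had over 90% of their 1-month-old CPM in replicate 3. The division did not follow the azurophil and mature classes, since the S100 genes lay with the proteases.

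**Figure D3:**
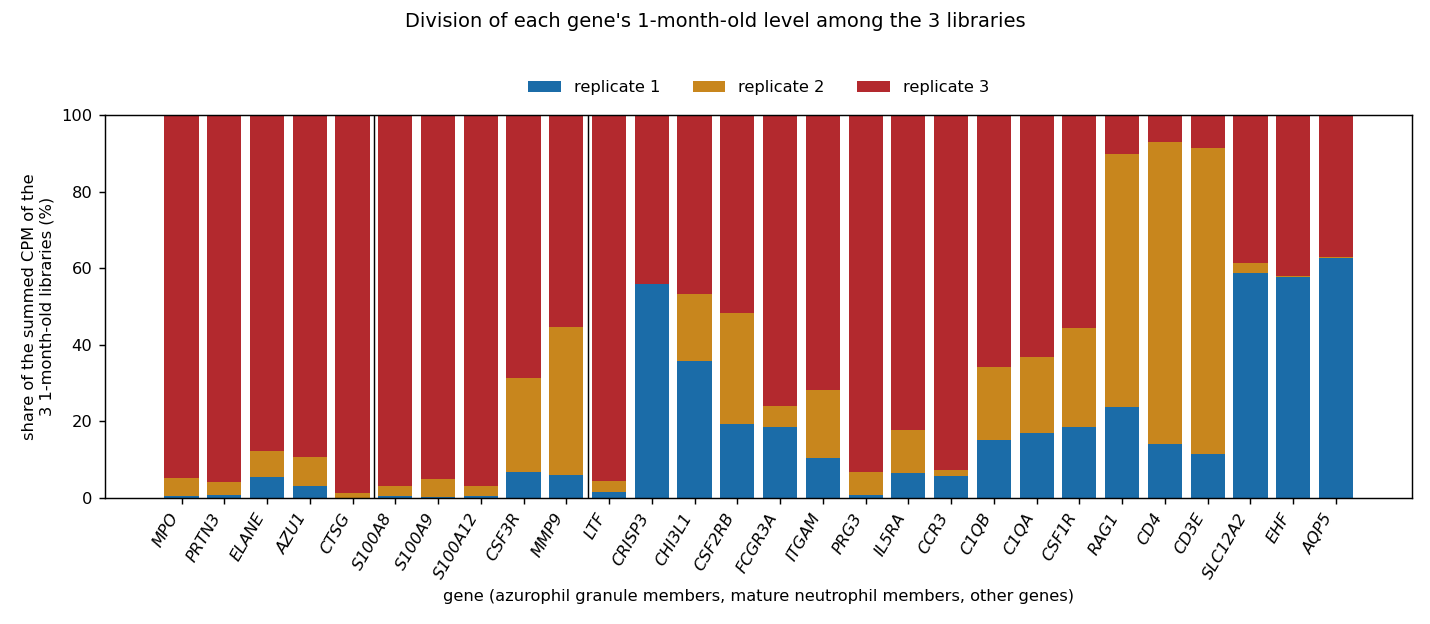
Share (%) of each gene's summed 1-month-old CPM that came from replicate 1, 2 or 3, for the 10 genes and for the 3 most abundant genes of 6 other lists (specific granule, receptor, eosinophil, macrophage, thymocyte, salivary). Replicate 3 holds 94.7% of MPO and 55.4% of MMP9, but 10.2% of the thymocyte gene RAG1.

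The ratios between genes differed from library to library as well. The ratio of MPO to ELANE reads was 1.00, 7.32 and 11.3 in 1-month-old replicates 1, 2 and 3. S100A12 to CSF3R was 0.441, 0.566 and 7.61, so the calgranulin message was higher relative to the receptor message in replicate 3 than in the other 2 young libraries. S100A12 to S100A8 was 3.72, 3.11 and 3.09 in the young libraries, whose S100A8 counts ran from 14 to 3906 reads. In the older libraries it ran from 1.75 in 12-month-old replicate 2 to 4.05 in 12-month-old replicate 1, on 3 to 19 S100A8 reads, apart from 24-month-old replicate 1, which had 3 reads of each gene.

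The ratio of summed azurophil granule reads to summed mature neutrophil reads was 0.537, 0.451 and 0.621 in 1-month-old replicates 1, 2 and 3. The summed reads behind it ran from 138 against 257 in replicate 1 to 15062 against 24237 in replicate 3. As a share of the reads of the 10 genes, the azurophil genes took 34.9% (95% exact binomial interval 30.2 to 39.9), 31.1% (29.1 to 33.1) and 38.3% (37.8 to 38.8), intervals that cover counting error only. At 12 months the ratio was 0.0540, 0.367 and 0.462, and at 24 months 0, 0.267 and 0.661. These older values rest on 0 to 41 azurophil reads per library. The shares in 12-month-old replicate 1, 5.12% (2.24 to 9.85), and 24-month-old replicate 1, 0% (0 to 21.8), lay below those of all young libraries, while the intervals of 12-month-old replicates 2 and 3, 26.8% (14.2 to 42.9) and 31.6% (17.5 to 48.7), and of 24-month-old replicate 3, 39.8% (30.3 to 49.9), included the shares of all 3 young libraries. In 24-month-old replicate 2 the share was 21.0% (9.55 to 37.3). Without MPO and S100A12 the mean 1-month-old ratio went from 0.536 to 0.328.

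Genes of the later granules included some with most of their 1-month-old CPM in replicate 3 and some without. Of 13 specific and gelatinase granule genes, 8 were tested and 0 called in either comparison by the quasi-likelihood test, with 1 and 2 at an unadjusted p under 0.05, beside 37.1% and 34.1% of all genes tested. DESeq2 was run without the filter on low counts and called 4 in each comparison, beside 13.8% and 14.7% of all genes. At 12 months it fitted 12 genes of the list and called CD177, LCN2, OLFM4 and PGLYRP1. The median log2 difference of the 8 genes tested by edgeR was -0.56 at 12 months and -1.06 at 24 months, which leaves out the genes that the filter removed. LTF, lactoferrin, was at 6.60, 11.5 and 394 CPM at 1 month, but also at 299 CPM in 12-month-old replicate 1 and 184 CPM in 24-month-old replicate 3, and between 6.73 and 12.6 CPM in the other older libraries. Those 2 older libraries were also the ones with the highest S100A12 of their groups. Lactoferrin is also a product of glandular epithelium. CHI3L1, a chitinase-like protein, and CRISP3, a cysteine-rich secretory protein, were the other most abundant genes of the list and did not pass, with log2 differences at 12 months of -0.13 and 2.03 (adjusted p = 0.866 and 0.334). CRISP3 was at 47.5, 0.0351 and 37.4 CPM at 1 month, lowest in replicate 2 as AQP5 was, and between 45.1 and 141 CPM later. Of the other genes of the list, named after their values were seen, LCN2, which encodes a siderophore-binding lipocalin, was at 0.0371, 4.17 and 61.2 CPM at 1 month and at most 0.220 CPM later. CD177, a neutrophil surface glycoprotein, was at 0.148, 1.84 and 40.4 CPM and at most 0.131 CPM later. MMP8, neutrophil collagenase, had 0, 0 and 103 reads at 1 month and none later, and OLFM4, olfactomedin 4, had 8, 38 and 76 reads and at most 0.0410 CPM later. These 4 genes were removed by the filter on low counts. PGLYRP1, a peptidoglycan recognition protein, was at 1.67, 12.6 and 279 CPM at 1 month and between 1.34 and 14.8 CPM later, with log2 differences of -3.71 and -3.70 that did not pass (adjusted p = 0.164 and 0.149).

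The receptors and signalling genes around the neutrophil fell in part. Of 11 receptor genes 7 were tested and 2 fell at each age, IL1R2, a decoy receptor for interleukin 1, and CSF2RB, the shared chain of the GM-CSF, interleukin 3 and interleukin 5 receptors. CSF2RB was at 69.5, 104 and 186 CPM at 1 month and fell at both ages, with log2 differences of -2.50 and -2.45 (adjusted p = 0.0144 and 0.0192). ITGAM, the integrin chain CD11b, and FCGR3A, an Fc receptor also found on macrophages, did not pass, with log2 differences at 12 months of -2.56 and -2.42 (adjusted p = 0.0666 and 0.0920). The median of the list was -2.50 at 12 months and -2.25 at 24 months. Over all genes tested 9.55% were called lower at 12 months and 9.16% at 24 months. At 12 months the 2 receptor calls became 7 without 1-month-old replicate 2, 1 without replicate 3, 7 with edgeR's exact test, 6 with DESeq2 (ITGAM and FCGR3A among them, of 9 fitted), 4 with all 9 libraries in one fit and 0 with the replicate block. The share called over all genes moved as well. It went from 11.5% to 12.4%, 9.24%, 15.5%, 13.8%, 13.5% and 5.25% in the same order. At 24 months the 2 receptor calls became 6 without 1-month-old replicate 2, 4 without replicate 1, 1 without replicate 3, 4 with the exact test and 1 with the block. The share over all genes went from 13.1% to 14.4%, 12.0%, 9.81%, 17.0% and 11.5% in that order. Leaving out any 1 of the older libraries of a comparison left 0 receptor genes called. Of all genes, 0% to 0.702% were then called at 12 months and 1.89% to 8.13% at 24 months.

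RAC2, the small GTPase of the NADPH oxidase, the complex that makes superoxide, was highest in replicate 2, at 178, 1243 and 311 CPM in the 3 young libraries, unlike any of the 10 genes, and fell by 5.11 on the log2 scale at 12 months (adjusted p = 0.0143). CYBB and CYBA, which encode the membrane-bound chains of the oxidase, did not pass the call, with log2 differences at 12 months of -0.83 and -1.90 (adjusted p = 0.538 and 0.0383, the latter short of the fold required). Of 7 myeloid transcription factors, 6 were tested, and GFI1 and SPI1 fell at 12 months and GFI1 at 24 months, with medians of -1.31 and -1.25. GFI1, a repressor needed for neutrophil formation and also active in T-cell precursors, was likewise highest in replicate 2, at 29.2, 67.3 and 21.8 CPM. The most abundant factors, RUNX1, CEBPA and CEBPD, were not called, with log2 differences at 12 months of -1.22, 0.41 and 0.63 (adjusted p = 0.0677, 0.422 and 0.396). CEBPE, which drives specific granule genes, was named after its values were seen and was at 0, 0.814 and 8.87 CPM at 1 month and 0 in every older library.

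Other members of the S100 and metalloproteinase families were examined beside S100A8, S100A9, S100A12 and MMP9, with no test of a difference between them. Of 15 other S100 genes 9 were tested, 0 were called lower and 1, S100A2, rose at both ages, beside 1.94% and 3.89% of all genes called higher, with medians of 0.26 and 0.72. S100A11, the most abundant of them, was at 110, 307 and 134 CPM at 1 month and between 209 and 628 CPM in the older libraries. S100A10 and S100A16, the next most abundant, were not called, with log2 differences at 12 months of 0.11 and 0.92 (adjusted p = 0.808 and 0.0502). Of 14 other metalloproteinases and their inhibitors 12 were tested, and MMP19, at 8.34, 11.8 and 19.1 CPM in the young libraries, fell at 12 months while TIMP2, an inhibitor, rose at 24 months by 2.36 on the log2 scale (adjusted p = 0.0385). MMP2, gelatinase A, and MMP15, a membrane-bound protease, were not called at 12 months, with log2 differences of -0.65 and 0.94 (adjusted p = 0.247 and 0.112). The medians of that list were -0.42 and -0.57. Among 11 genes of calprotectin receptors and the G-CSF axis, CSF2RA and SOCS3 fell at both ages, of 9 and 8 tested, with medians of -1.23 and -1.80. SOCS3, a feedback inhibitor of cytokine signalling, was highest in replicate 2, at 37.3, 146 and 37.3 CPM. JAK2 and STAT3, the kinase and transcription factor through which the G-CSF receptor acts, were not called, with log2 differences at 12 months of -0.59 and 0.12 (adjusted p = 0.271 and 0.812). TLR4, a receptor of calprotectin, named after its values were seen, did not pass, with log2 differences of -0.03 and 0.23 (adjusted p = 0.973 and 0.808).

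**Figure D4:**
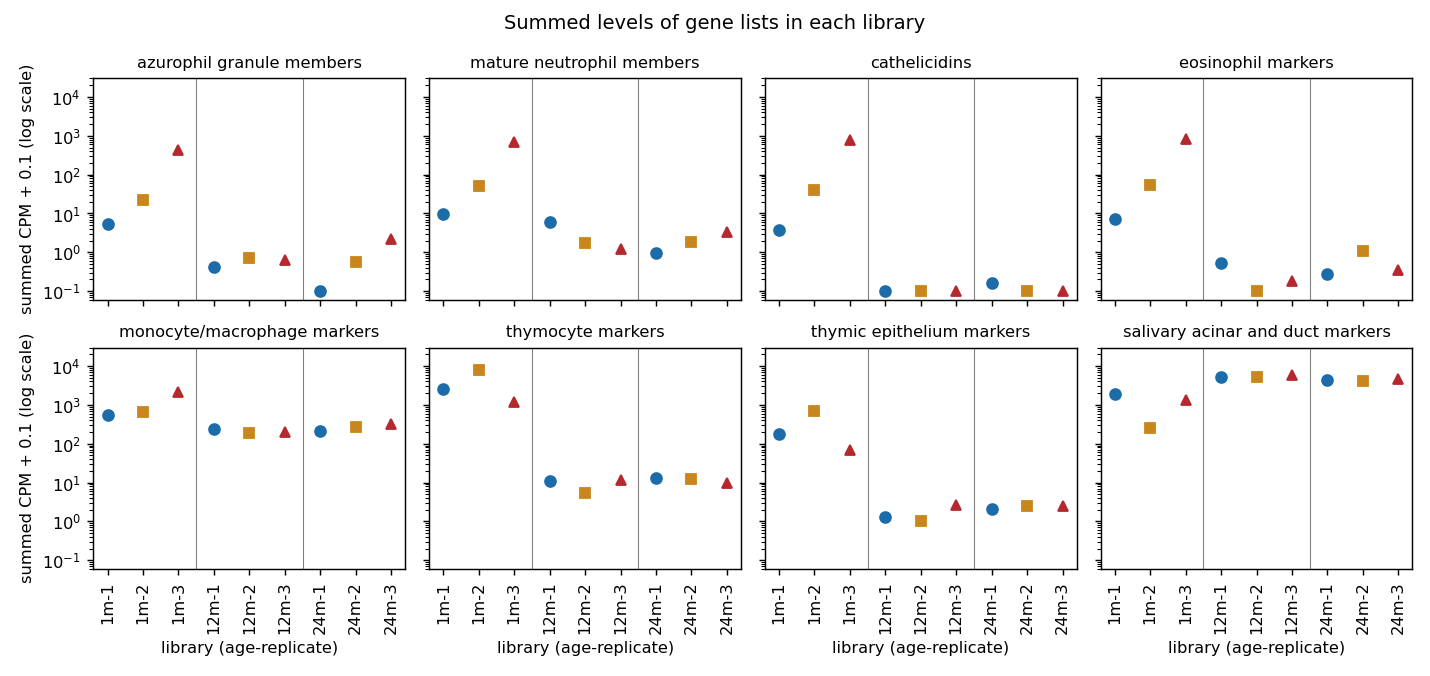
Summed level of 8 gene lists in each library, as CPM + 0.1 on a log scale, with libraries ordered by age and replicate and vertical lines between the ages. The cathelicidins (783 CPM) and eosinophil markers (853 CPM) peak in 1-month-old replicate 3 like both neutrophil classes, whereas thymocyte markers peak in replicate 2 (7872 CPM).

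Several other lists, 1 of neutrophil granule peptides and the rest of other cells, moved with the 10 genes across the 1-month-old libraries. Their part in the result was not tested. The 8 cathelicidin genes, which encode antimicrobial peptides of neutrophil granules, summed to 3.63, 39.5 and 783 CPM in the young libraries and to at most 0.0581 CPM in any older one. They were chosen by the study on these samples and give no independent evidence of direction. Of the 3 tested, 1 was called at 12 months and 3 at 24 months. BAC7.5, the most abundant, was at 0.816, 9.09 and 286 CPM in the young libraries and had no read in the older ones. Eosinophil markers (5 of 7 found) summed to 6.93, 55.3 and 853 CPM, nearly all from PRG3, an eosinophil granule protein gene. PRG3 is here the sum of several genes found only by the description proteoglycan 3-like. EPX, the eosinophil peroxidase gene, was at 0 in every library. Of the eosinophil markers 2 were tested, and 2 were called lower at 12 months and 1 at 24 months. Monocyte and macrophage markers (10 of 10 found) summed to 561, 648 and 2101 CPM at 1 month and to between 186 and 316 CPM in the older libraries, and 5 and 7 of the 10 were called lower. C1QA, a complement component made by macrophages, was at 122, 143 and 456 CPM at 1 month.

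The remaining lists did not peak in replicate 3, apart from the mast cell list. Thymic epithelium markers (5 of 5 found) summed to 174, 707 and 69.5 CPM at 1 month and to at most 2.53 CPM in older libraries, and 4 of 4 tested were called lower at both ages, as were 8 of 8 thymocyte markers and 6 of 6 cell cycle genes. Cell cycle genes summed to 988, 2578 and 839 CPM at 1 month and to at most 37.2 CPM later. Haematopoietic progenitor markers summed to between 277 and 449 CPM at 1 month and 206 and 449 CPM later, and FLT3 and MYB were called lower at both ages. Erythroid markers (7 of 8 found) were at 6.64, 27.2 and 9.70 CPM, with HBB at 4.33 CPM in replicate 3, and 1 of 2 tested was called lower at each age. Mast cell markers reached 23.1 CPM and squamous epithelium markers 29.7 CPM in any library. Of the mast cell markers 1 of 3 tested was called lower at 12 months and 0 at 24 months, with 0 higher at either age. Of the squamous markers 1 of 4 and 1 of 3 were called lower. Of 10 salivary markers 0 were called at 12 months and 1, KRT18, was called higher at 24 months.

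The genes whose pattern over the 9 libraries was most like that of the summed azurophil granule genes, among 14177 genes, were LRG1 (Pearson r = 0.992 of log2(CPM + 1)), HK3 (r = 0.988) and LOC102184299 (r = 0.987). LRG1, a leucine-rich glycoprotein, was at 2.37, 6.72 and 31.0 CPM at 1 month, and HK3, a hexokinase, at 3.30, 6.97 and 48.6 CPM. For the summed mature neutrophil genes they were NRP2 (r = 0.989), P2RX1 (r = 0.987) and LOC102184299 (r = 0.984). These values are descriptions over libraries that share the one high library, 1-month-old replicate 3.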

How the data were processed

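RNA-seq libraries from 9 goats were analysed. Per the study's methods and processing notes, the authors removed ribosomal reads with Bowtie2 (2.2.8), aligned with TopHat2 (2.1.1), assembled with Cufflinks and quantified with RSEM. The genome build is not given in the sources used here. The deposited values are expected counts for 52739 transcripts, each library multiplied by its own constant (0.439 to 1.17). Between 83.1% and 86.0% of low single-transcript values were whole multiples of it within 0.006, so it was divided out. This differed from the assumed raw counts. Transcripts were summed to 21681 genes through RefSeq identifiers (42652 of 42686 matched), symbols or descriptions, and rounded. edgeR 4.0.16 (filterByExpr, TMM, quasi-likelihood test, R 4.3.3) compared each pair of ages, and DESeq2 1.42.0 was an alternative. Scripts were tested on data simulated from the 12- and 24-month-old libraries only, so the comparisons with 1 month were not simulated. The members and lists were chosen with earlier results of these data known. The rule for names took all members, the 3 most abundant genes of each list (several marker lists are given by counts and sums only) and the 3 genes most like each class. Other list genes were named after their values were seen. P-values measure the spread between these animals. The counts of the NADPH oxidase list are not reported here.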

Additional observations from a re-analysis of the deposited data

How the results depend on the processing

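For the 8 members tested, no fitted difference between an older group and 1 month reversed under the settings with a gene-level fit, which leaves out transcripts tested singly. Over these genes and settings the call stayed as it was in 85 cases at 12 months, was gained in 12 and lost in 22, and at 24 months in 90, 3 and 26. In these tallies and in the counts below, a fit without a p-value counted as no call. DESeq2 gave a fitted difference but no p-value for ELANE, S100A8 and S100A12 at 12 months. At 12 months the 5 calls became 8 with edgeR's exact test and 8 with all 9 libraries in one fit, 3 with RefSeq transcripts only and 0 with transcripts tested singly. The share called over all genes tested moved as well, from 11.5% to 15.5%, 13.5% and 9.80%, and was 2.44% of single transcripts. The 3 azurophil granule calls became 1 with RefSeq transcripts only and 0 singly, and the 2 mature neutrophil calls became 5 with the exact test, 5 with all 9 libraries and 0 singly. At 24 months the 7 calls became 0 singly. The 2 azurophil granule calls became 1 with RefSeq transcripts only and 0 singly. The 5 mature neutrophil calls became 3 with DESeq2 and 0 singly. Over all genes tested the share called at 24 months went from 13.1% to 10.96% with RefSeq transcripts only and 14.7% with DESeq2. Of single transcripts 1.47% were called at that age. With RefSeq transcripts only, MPO was not tested at either age. Its reads in 1-month-old replicates 2 and 3 lay on a newly assembled transcript, which that setting leaves out. The causes of the changes in calls were not tested. Leaving out each replicate in turn gave 0 to 8 calls at 12 months (azurophil granule 0 to 3, mature neutrophil 0 to 5) and 0 to 8 at 24 months (azurophil granule 0 to 3, mature neutrophil 0 to 5). Those omissions left 0% to 12.4% of all genes called at 12 months and 1.89% to 14.4% at 24 months. The values as deposited, an alternative chosen after seeing the data, gave 5 and 7 calls. The mean 1-month-old ratio of azurophil to mature reads, 0.536, became 0.205 with RefSeq transcripts only and 0.328 without MPO and S100A12, and ranged from 0.494 to 0.579 when each young library was left out.

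Each library came from a separate animal, so replicate numbers were not taken to pair animals across ages. Of 9 same-numbered pairs 2 had a correlation of deviations over 0.1 (range -0.232 to 0.420). Differently numbered pairs ranged from -0.420 to 0.350, so these correlations alone cannot decide on pairing. With the replicate block 2 genes were called at 12 months (AZU1 and MPO), with 2 azurophil granule and 0 mature neutrophil genes, and 7 at 24 months. Over all genes tested the block gave calls for 5.25% at 12 months and 11.5% at 24 months. Between 12 and 24 months 0 were called with or without the block. The limit of 3 counts, 0.124 to 0.174 CPM in the older libraries, bounds what could be seen there, where no member exceeded 77 reads.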
